A study of Rattus norvegicus with 10 samples.

Results

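The sarcomeric myosin heavy chains are the motor proteins of the muscle thick filament, and 8 of their genes were examined in the gastrocnemius, a calf muscle, of aged and young rats. The members were Myh3 (embryonic), Myh8 (perinatal), Myh7 (slow, also the beta chain of the heart), Myh7b (slow-tonic type), Myh6 (alpha chain of the heart), Myh2 (fast 2A), Myh1 (fast 2X) and Myh4 (fast 2B). They were all probe sets whose gene symbol in the deposited table was one of these names, which gave 20 of 43686 probe sets. Myh7 had 7 probe sets, Myh1 had 4, Myh4 had 3, Myh3 had 2 and the other 4 genes had 1 each.

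The aged group was 5 male Sprague-Dawley rats of 24 months by the label, with an age at necropsy of 28 months. The young group was 5 male Sprague-Dawley rats of 6 months, with an age at necropsy of 7 months. Both groups had free access to food and water, and neither carried a transgene or received a treatment, as far as the labels say. RNA of the lateral gastrocnemius of the left leg was labelled with biotin as complementary RNA and hybridised to 1 expression array per animal, so n = 5 animals per age and the p-values measure the spread between animals. The study asked which genes were higher or lower in aged muscle than in young muscle.

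Each muscle fibre builds its thick filaments mainly from 1 or a few heavy chain isoforms, and the isoform sets how fast the fibre shortens and how much energy it uses. In rodents, embryonic and perinatal chains fill the fibres before birth and around it, and are later replaced by slow or fast adult chains. Adult fibres that regenerate or lose their nerve are known to make the developmental chains again, and the rat gastrocnemius is a mixed muscle with mostly fast fibres.

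In the RefSeq annotation of the rat assembly GRCr8 the skeletal heavy chain genes lay side by side on chromosome 10, in the order Myh3, Myh2, Myh1, Myh4, Myh8 and then Myh13, with 0 protein-coding genes between neighbours. Myh6 and Myh7 were neighbours on chromosome 15, and Myh7b lay on chromosome 3. Windows of 300 bases at 4 gene starts of the chromosome 10 cluster are shown. By brightest probe set, Myh3 and Myh1 had the largest differences among the members, though the further Myh1 probe sets did not pass the test. Myh2 and Myh4 are the neighbours of Myh1, and their brightest probe sets did not pass. Each window runs from 250 bases before to 50 bases from the annotated start, 5′ to 3′ on the gene's strand, from RefSeq GRCr8. In the Myh3 window capitals mark an E-box (CANNTG, the letters that myogenic regulatory factors bind) at positions -192 to -187 and a TATAAA at -30 to -25, counted from 0 at the start. In the other windows capitals mark the longest run of letters that Myh2, Myh1 and Myh4 shared.
Myh3, chr10:52268935-52269234, plus strand: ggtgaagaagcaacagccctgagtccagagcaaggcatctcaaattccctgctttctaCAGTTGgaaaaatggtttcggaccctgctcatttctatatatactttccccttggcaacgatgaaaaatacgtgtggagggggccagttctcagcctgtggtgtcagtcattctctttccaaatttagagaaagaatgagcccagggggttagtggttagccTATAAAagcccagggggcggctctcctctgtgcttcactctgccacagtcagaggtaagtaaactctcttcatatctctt
Myh2, chr10:52355489-52355788, plus strand: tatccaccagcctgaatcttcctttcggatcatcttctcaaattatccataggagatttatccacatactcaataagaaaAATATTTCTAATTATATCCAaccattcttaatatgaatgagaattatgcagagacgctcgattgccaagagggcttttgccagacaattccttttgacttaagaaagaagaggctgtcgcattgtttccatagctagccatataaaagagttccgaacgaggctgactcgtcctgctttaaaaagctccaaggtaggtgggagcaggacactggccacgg
Myh1, chr10:52384662-52384961, plus strand: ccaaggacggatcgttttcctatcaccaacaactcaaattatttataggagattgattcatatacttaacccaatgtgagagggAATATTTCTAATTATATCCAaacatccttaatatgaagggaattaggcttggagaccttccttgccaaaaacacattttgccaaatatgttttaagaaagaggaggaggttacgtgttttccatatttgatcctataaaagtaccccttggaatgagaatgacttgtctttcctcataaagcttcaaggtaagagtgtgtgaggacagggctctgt
Myh4, chr10:52421898-52422197, plus strand: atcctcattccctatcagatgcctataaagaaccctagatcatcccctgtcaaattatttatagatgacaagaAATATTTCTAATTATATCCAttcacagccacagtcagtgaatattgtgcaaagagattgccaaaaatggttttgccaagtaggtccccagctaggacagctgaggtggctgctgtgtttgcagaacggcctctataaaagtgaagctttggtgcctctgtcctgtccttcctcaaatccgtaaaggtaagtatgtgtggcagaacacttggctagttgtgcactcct

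The shared run of 20 bases lay at -170 to -151 in Myh2, at -166 to -147 in Myh1 and at -177 to -158 in Myh4, and was found in 3 of the 33469 windows of this length, those of these genes. On either strand an E-box is in 72.1% of all windows and a TATAAA in 14.2%, so neither match sets Myh3 apart. Of the 8 members, the 4 windows printed held a TATAAA, and the Myh8 window held no match to any motif searched. A match to the MEF2 consensus, present in 3.29% of all windows, was found in Myh1 and Myh4. The CArG box, present in 1.64%, was found in Myh4. These matches are descriptions of letters in the windows and not measured binding sites.

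Myh7, Myh6 and Myh7b also carry microRNAs within them on the same strand, and 1 mature RNA of each is shown because these slow and cardiac members are hosts of related sequences. The opposite strand of Myh6 also holds rno-miR-3546, which is not printed. Capitals mark the seed, bases 2 to 8 of the mature RNA.
rno-miR-208b-3p, chr15:32421648-32421665, minus strand: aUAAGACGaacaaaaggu
rno-miR-208a-3p, chr15:32395568-32395585, minus strand: aUAAGACGagcaaaaagc
rno-miR-499-5p, chr3:164570616-164570636, plus strand: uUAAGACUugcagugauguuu

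The sequence within Myh7 (miR-208b) and that within Myh6 (miR-208a) shared the seed UAAGACG, and that within Myh7b (miR-499) carried the seed UAAGACU. A probe set named for the Mir208 gene had 9.93, 10.84, 12.81, 11.11 and 10.05 in aged muscle, against 14.65, 13.32, 13.48, 10.46 and 13.58 in young muscle. It did not pass the test (log2 fold change -0.26, limma adjusted p = 0.106), and which form of the RNA it detects is not given in the sources used here.

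Values are given as the intensity of a probe set, unlogged and as the authors normalized it, for animals 1 to 5 of each age. Fold changes are aged over young on the log2 scale with the standard error, from limma fitted to all 43686 probe sets, and a probe set was called where the Benjamini-Hochberg adjusted p was under 0.05. Counts at an unadjusted p under 0.05 are added for some lists. The share of all genes at that threshold is not given here, so these counts are not read as an excess. Among named genes it is at least the share called after adjustment, 13.8% higher and 8.7% lower. Array medians lay between 13.46 and 13.99, and the files hold no detection call, so a value near those medians may be mostly background. Brightness differs between probe sets for reasons other than the amount of RNA, so no isoform's level is ranked against another's. In whole muscle, fewer fibres of a type and less RNA per fibre cannot be told apart. The skeletal muscle markers Ckm and Acta1 were among the brightest probe sets of the arrays. Of 8 such markers, 7 did not pass the test, while Mb was 1.16-fold higher in aged muscle (limma adjusted p = 0.0365). The highest intensity on any array was 25989, and Ckm lay at 23805 to 24720 in aged muscle and 24326 to 24380 in young muscle. Whether differences are compressed near that top was not tested. A test not passed by a very bright probe set, of Myh4 or fast fibre genes for example, is therefore not read as an absence of change.

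Of the 20 probe sets, 3 were higher in aged muscle, 2 were lower and 15 did not pass. The background over all 43686 probe sets was 8.09% called higher and 6.87% called lower. Taking the brightest probe set of each gene, 2 of 8 genes were higher (Myh3 and Myh8), 1 was lower (Myh1) and 5 did not pass, beside 13.8% called higher and 8.7% called lower among 19027 named genes. The median log2 fold change of the 8 genes was 0.09, against -0.01 over all named genes.

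**Figure D1:**
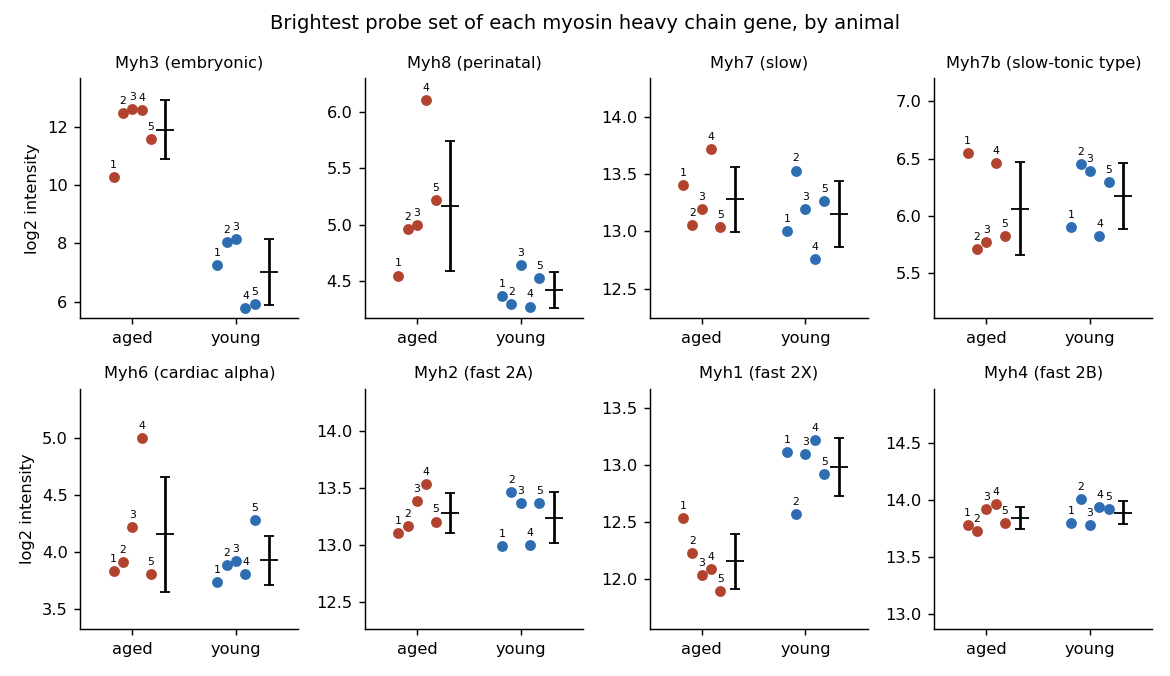
Log2 intensity (y axis, own scale per panel) of the brightest probe set of each of the 8 genes, with aged animals (red, left) and young animals (blue, right); numbers name the animals and the bar is the mean with its SD, n = 5. The groups stand apart for Myh3, where aged animals are higher, and for Myh1, where they are lower. In the other 6 panels they overlap. The share of all probe sets whose groups stand apart was not computed, so these panels are not read as an excess.

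Myh3, the embryonic chain, was the member with the largest difference. Its brighter probe set, NM_012604_at, had 1237, 5722, 6261, 6112 and 3049 in aged muscle, against 152, 261, 284, 55.1 and 60.2 in young muscle. The lowest aged animal, animal 1, was above the highest young animal. The log2 fold change was 4.88 ± 0.53 (adjusted p = 0.000102), a 29.4-fold difference with a 95% interval of 3.73 to 6.03 on the log2 scale.

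The Myh3 level also varied widely between animals of an age. The highest value was 5.06 times the lowest in aged muscle and 5.16 times the lowest in young muscle, and the SD of log2 intensity was 1.01 in aged and 1.13 in young animals. For the fast chain Myh4 the same ratios were 1.18 in aged and 1.17 in young muscle on its brightest probe set, 1.14 and 1.49 on NM_019325_at, and 1.46 and 1.45 on AI172178_at. Within the aged group, animal 1 had the lowest Myh3 on both probe sets, and it was also the lowest aged animal for 10 of the 17 denervation response genes described further on.

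The dimmer Myh3 probe set, BQ191538_at, had 9.42, 19.3, 20.5, 26.2 and 15.2 in aged muscle, against 9.15, 9.39, 6.75, 7.92 and 7.64 in young muscle. Aged animal 1 barely exceeded the highest young animal, and all 5 young values were below the array medians. It was called higher with a log2 fold change of 1.08 ± 0.21 (adjusted p = 0.00424). With the young values below the array medians, the size of its fold change is uncertain. The difference between the age effects on both probe sets was -3.80 on the log2 scale, dimmer minus brighter (exact permutation test over all splits of the animals, adjusted p = 0.0238 over 12 comparisons of probe sets of a gene).

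Myh8, the perinatal chain, had 23.4, 31.1, 31.9, 68.9 and 37.3 in aged muscle, against 20.5, 19.6, 24.9, 19.3 and 23.0 in young muscle on its only probe set. Aged animal 4 stood highest and aged animal 1 lay within the young range, so the groups overlapped. The log2 fold change was 0.75 ± 0.22, a 1.68-fold difference (adjusted p = 0.0333). The call was lost with aged animal 5 or young animal 1, 2, 4 or 5 left out (adjusted p up to 0.0776), with an intensity trend in the variance model (0.0602), without both aged columns marked as replacements (log2 fold change 0.42, adjusted p = 0.0521), and with 16 added to each intensity (log2 fold change 0.49, adjusted p = 0.0951). The age effect on Myh3 was larger than that on Myh8 by 4.13 on the log2 scale (exact permutation test, p = 0.00794, adjusted p = 0.0317 over 8 pairs of isoforms).

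**Figure D2:**
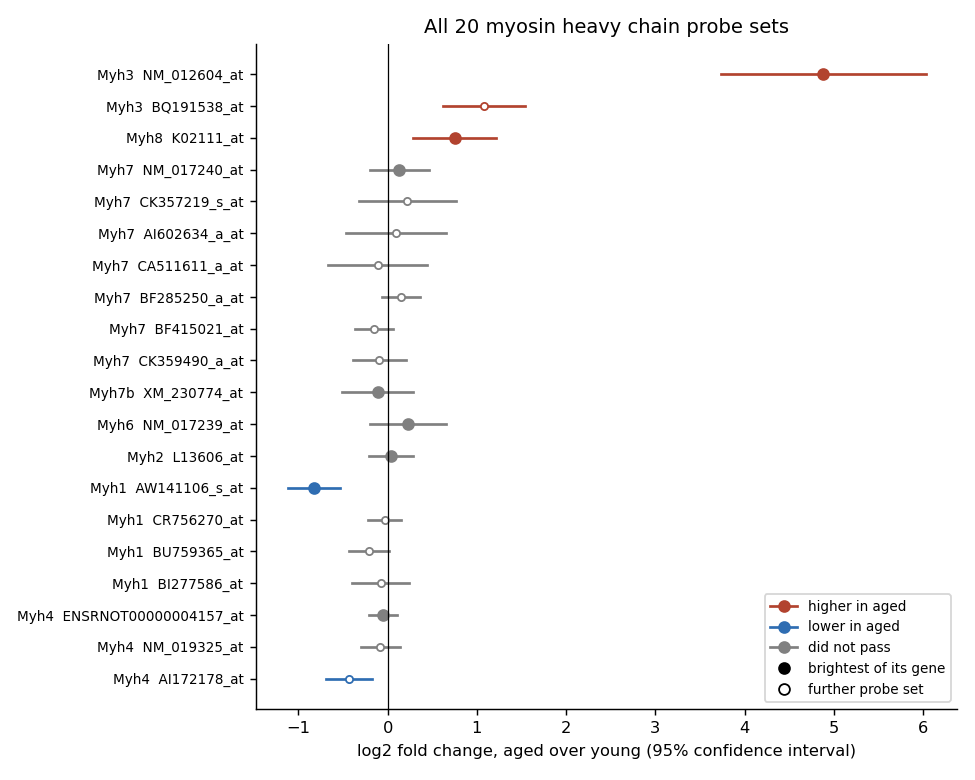
Log2 fold change, aged over young (x axis), with its 95% confidence interval for all 20 probe sets; filled points are the brightest probe set of a gene, red was called higher in aged, blue lower, and grey did not pass. The intervals of both Myh3 probe sets and of the Myh8 probe set lie wholly right of 0, while the intervals of 1 of 4 Myh1 and 1 of 3 Myh4 probe sets lie wholly left of it.

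The slow chain Myh7 showed no called difference on any of its 7 probe sets, whose log2 fold changes ran between -0.16 and 0.22 (limma adjusted p between 0.342 and 0.856). At an unadjusted p under 0.05 the count was also 0 of 7. The brightest, NM_017240_at, had 10838, 8524, 9377, 13509 and 8410 in aged muscle, against 8212, 11856, 9374, 6927 and 9863 in young muscle. The ranges overlapped over most of their length, and the 95% interval of the log2 fold change was -0.20 to 0.46. A difference as large as that of the brightest Myh1 probe set, -0.83 on the log2 scale, lies outside this interval. The further Myh1 probe sets gave smaller differences.

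Myh7 differed more between animals than between ages. On CK357219_s_at the values were 6181, 4419, 4984, 9579 and 3931 in aged muscle, against 3964, 7446, 4731, 3045 and 5663 in young muscle. Aged animal 4 was the highest aged animal on 5 of 7 Myh7 probe sets, young animal 2 the highest young animal on 6 of 7, and young animal 4 the lowest young animal on 6 of 7. The same animals stood out among 12 other slow fibre genes: aged animal 4 was highest for 8, young animal 2 was highest for 11, and young animal 4 was lowest for 11. The place of aged animal 4 was not particular to slow fibre genes. Its mean log2 shift was also the highest of the aged animals for endothelial and fibroblast markers, though not for fat cell markers or the denervation response genes. These positions are descriptions of single animals, and probe sets of a gene share their RNA and array. The dimmer probe sets BF285250_a_at, at 40.9 to 59.5 in aged muscle and 37.6 to 47.7 in young muscle (log2 fold change 0.15, adjusted p = 0.356), and BF415021_at, at 22.6 to 29.4 in aged muscle and 26.3 to 36.0 in young muscle (-0.16, adjusted p = 0.342), differed less between animals than the brightest did.

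Myh7b, a relative of Myh7 found in slow-tonic and extraocular fibres, had 93.8, 52.2, 54.4, 88.0 and 56.5 in aged muscle, against 59.9, 87.4, 83.9, 56.5 and 78.4 in young muscle. The groups overlapped, with aged animals 1 and 4 and young animals 2, 3 and 5 at the upper level (log2 fold change -0.11 ± 0.18, adjusted p = 0.75). Its age effect minus that on Myh7 was -0.24 on the log2 scale (exact permutation test, adjusted p = 0.102).

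Myh6, the alpha chain of the heart, had 14.3, 15.1, 18.6, 32.0 and 14.0 in aged muscle, against 13.4, 14.8, 15.2, 14.0 and 19.5 in young muscle. All values but that of aged animal 4 were close to the array medians, and the test was not passed (log2 fold change 0.23 ± 0.20, adjusted p = 0.504). Of 9 heart markers, Sln was higher in aged muscle and 8 did not pass, among them the natriuretic peptide Nppa, at 38.2 to 42.5 in aged muscle and 33.8 to 48.2 in young muscle. The summed level of the 9 was 4971 to 12506 in aged muscle, against 593 to 1087 in young muscle, and Sln, which skeletal muscle also makes, was 4749 to 12276 of it in aged animals and 342 to 874 in young animals.

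Among the fast chains, Myh2 (2A) did not pass the test. It had 8793, 9209, 10684, 11902 and 9452 in aged muscle, against 8151, 11277, 10591, 8216 and 10568 in young muscle. The groups overlapped (log2 fold change 0.04 ± 0.11, adjusted p = 0.86), and the 95% interval of -0.21 to 0.29 on the log2 scale leaves room for small changes in either direction.

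Myh1 (2X) was lower in aged muscle on its brightest probe set only. AW141106_s_at had 5929, 4797, 4201, 4350 and 3802 in aged muscle, against 8853, 6098, 8762, 9507 and 7734 in young muscle. All aged animals were below all young animals, though aged animal 1 and young animal 2 were close. The log2 fold change was -0.83 ± 0.13, which is 1.77-fold lower (adjusted p = 0.00122).

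The other 3 Myh1 probe sets did not pass. BI277586_at had 59.8, 59.2, 74.1, 84.6 and 84.7 in aged muscle, against 68.2, 91.7, 92.4, 56.5 and 75.5 in young muscle (log2 fold change -0.08, adjusted p = 0.784). CR756270_at had 195, 180, 228, 203 and 209 in aged muscle, against 241, 196, 219, 196 and 188 in young muscle (log2 fold change -0.03, adjusted p = 0.851). BU759365_at had 142, 122, 136, 149 and 147 in aged muscle, against 182, 155, 179, 170 and 126 in young muscle (log2 fold change -0.21, adjusted p = 0.202). On that probe set 4 young animals were above all aged animals and young animal 5 was within their range, and without young animal 5 it was called lower (adjusted p = 0.0357).

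The probe sets of Myh1 therefore differed in their age effect. The further probe sets minus the brightest gave 0.79 for CR756270_at (exact permutation test, adjusted p = 0.0238), 0.62 for BU759365_at (adjusted p = 0.0381) and 0.75 for BI277586_at (adjusted p = 0.0952). On arrays with this naming, the ending _s_at marks a probe set whose probes are shared by several transcripts, and RefSeq lists Myh1 as an older name of Myh2. Probe sequences were not used here, so which chains AW141106_s_at detects was not tested. The mean over all 4 probe sets gave a log2 fold change of -0.29 (limma adjusted p = 0.0125). That mean includes AW141106_s_at, so its call is no separate evidence of a lower Myh1 level.

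Myh4 (2B), the fastest chain, did not pass the test on its brighter probe sets. ENSRNOT00000004157_at had 14124, 13626, 15519, 16039 and 14301 in aged muscle, against 14221, 16509, 14073, 15750 and 15538 in young muscle. The groups overlapped, and the log2 fold change was -0.05 ± 0.07 (adjusted p = 0.726, 95% interval -0.21 to 0.11). NM_019325_at gave -0.08 ± 0.10 (adjusted p = 0.65).

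The third Myh4 probe set, AI172178_at, had 93.2, 78.3, 89.7, 106 and 72.6 in aged muscle, against 116, 117, 107, 151 and 104 in young muscle. Only aged animal 4 reached the young range. It was called lower by 1.35-fold (log2 fold change -0.43 ± 0.12, adjusted p = 0.0251), and lost the call without aged animal 2, aged animal 5 or young animal 4 (adjusted p up to 0.0647). Its age effect minus that of the brightest Myh4 probe set was -0.39 on the log2 scale (exact permutation test, adjusted p = 0.0238).

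**Figure D3:**
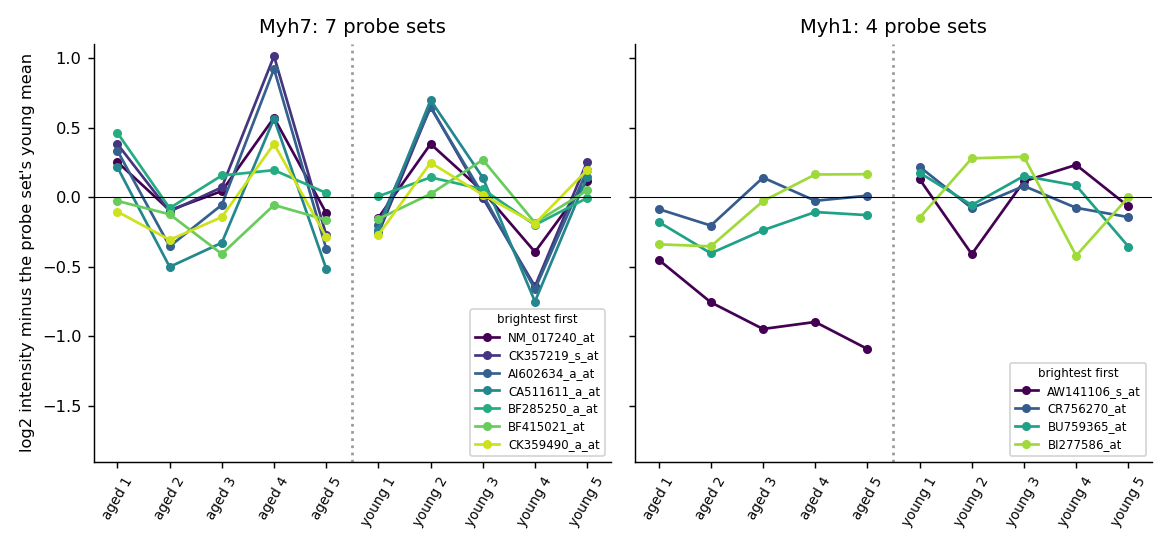
Log2 intensity minus each probe set's own young mean (y axis) by animal (x axis; aged left, young right) for the 7 probe sets of Myh7 and the 4 of Myh1; lines only join the values of a probe set. The 4 brightest Myh7 probe sets move together, with aged animal 4 and young animal 2 high, while the brightest Myh1 probe set runs below the other 3 in every aged animal.

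Across the comparisons of probe sets of a gene, 5 of 12 passed. The count was 0 without aged animal 3, aged animal 5 or both aged columns marked as replacements, and 2 without aged animal 2, aged animal 4 or young animal 4 and after quantile normalization. Without both replacements the smallest possible p of the test is also larger. The 5 that passed with all animals were the Myh3 pair, 2 Myh1 comparisons, AI172178_at of Myh4, and the dimmest Myh7 probe set, CK359490_a_at, at -0.22 (adjusted p = 0.0238). BQ191538_at in young animals and CK359490_a_at in all animals lay below the array medians, where a value may be mostly background. What the differences of these probe sets reflect was not tested, and they are not read as unequal change of the RNA. For the other 5 further probe sets of Myh7 the differences from the brightest ran between -0.29 and 0.09 and did not pass.

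Pairs of isoforms asked whether age moved 2 members unequally within the same arrays, and 4 of 8 pairs passed. The age effect on Myh3 exceeded that on Myh7 by 4.75 on the log2 scale, and Myh1 fell relative to Myh4 by 0.78 and relative to Myh2 by 0.87 (exact permutation tests, adjusted p = 0.0317 each). Both Myh1 calls held without aged animal 1 or young animal 2, and ended without any other single animal (adjusted p up to 0.0635). Averaging all probe sets of each gene also ended them, at -0.10 against Myh4 (adjusted p = 0.357) and -0.33 against Myh2 (adjusted p = 0.169). The pairs of Myh7 with Myh4 (0.18, adjusted p = 0.413), Myh2 with Myh4 (0.09, adjusted p = 0.526) and Myh6 with Myh7 (0.10, adjusted p = 0.627) did not pass. Ratios of this kind show unequal change only.

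Genes whose pattern over the 10 animals was most like that of a called member were found among 13009 named genes, by the mean absolute difference of log2 shifts from each gene's own young mean. The measure includes the shift with age, so the direction and rough size of the neighbours' fold changes follow from how they were picked. Nearest to Myh3 were Chrna1, a subunit of the nerve-muscle acetylcholine receptor (0.678), Sln, which encodes the calcium pump inhibitor sarcolipin (0.718), Ctxn3 (0.721), Dclk1 (0.747) and Emb (0.770). Those 5 genes were called higher, by 15.3-fold to 33.7-fold. Nearest to Myh1 were Mul1, a mitochondrial ubiquitin ligase (0.0932), Asb4 (0.105), Rragd (0.111), Nkiras1 (0.114) and Lrig1 (0.120), all called lower by 1.62-fold to 1.90-fold. Nearest to Myh8 were Rpl17 (0.101), Xpo6 (0.116), Igf2r (0.122), Fzd1 (0.125) and Slc5a2 (0.131), of which Slc5a2 did not pass (adjusted p = 0.0893).

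The light chains, which bind the neck of the heavy chain, did not pass the test in 6 of 7 genes of their list. Mylk2, the kinase that phosphorylates the regulatory light chain, was 2.43-fold lower (adjusted p = 0.000146), with 1055, 955, 704, 776 and 537 in aged muscle, against 1941, 1870, 1799, 1872 and 2028 in young muscle. Myl4, the embryonic light chain, had 926, 1032, 1423, 3176 and 1324 in aged muscle, against 1702, 191, 270, 1125 and 1140 in young muscle. The Myl4 groups overlapped and the test was not passed (log2 fold change 1.13 ± 0.55, adjusted p = 0.203).

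Of 12 measured partners of the thick filament and M-band, 2 were higher, 2 were lower and 8 did not pass, with a median log2 fold change of -0.004. Mybph, a myosin binding protein, was 3.62-fold higher (adjusted p = 0.0021) and Smpx, the small muscular protein, 1.67-fold higher (adjusted p = 0.000102). The fast myosin binding protein Mybpc2 was 1.46-fold lower (adjusted p = 0.00102) and the Z-disc protein Myoz1 1.22-fold lower (adjusted p = 0.0151). Among 8 genes of myosin folding and turnover, 2 were higher: the muscle ring finger protein Trim55, by 1.74-fold (adjusted p = 0.000195), and the ubiquitin ligase Stub1, by 1.26-fold (adjusted p = 0.0347). The myosin chaperones Unc45b (log2 fold change 0.10, adjusted p = 0.487) and Smyd1 (-0.06, adjusted p = 0.668) did not pass.

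Of 30 regulators of fibre type and of developmental myosin, 7 were higher, 7 were lower and 16 did not pass. The myogenic factors led the higher genes, with Myog 6.10-fold (adjusted p = 2.31e-07), Myf5 4.25-fold (adjusted p = 8.15e-05) and Myod1 3.53-fold (adjusted p = 0.00315) higher. Hdac4, a deacetylase that represses MEF2 factors, was 3.43-fold higher (adjusted p = 7e-06). Ppargc1a, a coactivator of mitochondrial and slow fibre genes, was 2.61-fold lower (adjusted p = 0.000938), Vgll2 1.98-fold lower and Ppargc1b 1.67-fold lower.

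Of 12 slow fibre genes, 3 were higher, 0 were lower and 9 did not pass, with a median log2 fold change of 0.27. In the same limma fit, 5 were higher and 0 lower at an unadjusted p under 0.05. Csrp3, a muscle LIM protein, was 2.58-fold higher (adjusted p = 0.0014), the slow calsequestrin Casq2 2.03-fold (adjusted p = 0.00194) and myoglobin, Mb, 1.16-fold (adjusted p = 0.0365). The slow troponins Tnnt1 (log2 fold change 0.35, adjusted p = 0.1), Tnni1 (0.30, adjusted p = 0.188) and Tnnc1 (0.38, adjusted p = 0.116) did not pass. Of 13 fast fibre genes, 5 were lower, 0 were higher and 8 did not pass, with a median of -0.06, and at an unadjusted p under 0.05 the limma counts were 6 lower and 0 higher. Pfkm, the muscle phosphofructokinase, was 1.86-fold lower (adjusted p = 0.000375) and the fast calsequestrin Casq1 1.43-fold lower (adjusted p = 0.00209), beside Mybpc2 and Myoz1.

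Of 14 developmental sarcomere and embryonic isoform genes, 8 were higher, 0 were lower and 6 did not pass, with a median log2 fold change of 1.01. At an unadjusted p under 0.05 the limma counts were the same, 8 higher and 0 lower. Ncam1, the neural cell adhesion molecule, was higher by 3.32 on the log2 scale (adjusted p = 1.56e-06), Chrng, the fetal gamma subunit of the acetylcholine receptor, 9.04-fold (adjusted p = 0.00012), the fusion protein Mymk 6.05-fold (adjusted p = 0.00188) and Igf2 4.98-fold (adjusted p = 5.85e-05). The fetal and cardiac sarcomere genes Actc1 (3.85-fold, adjusted p = 0.00204) and Tnnt2 (2.37-fold, adjusted p = 0.00404) were also higher.

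The denervation response list held genes known to rise in fibres that lose their nerve, and was chosen with earlier results of these data known. Of its 17 genes, 14 were higher, 0 were lower and 3 did not pass, with a median log2 fold change of 2.61. At an unadjusted p under 0.05 the limma counts were 15 higher and 0 lower. Chrna1 was 24.5-fold higher (adjusted p = 7.75e-07), Sln 15.3-fold (adjusted p = 1.6e-05), Runx1, a transcription factor, 14.7-fold (adjusted p = 7.75e-07) and Gadd45a 10.3-fold (adjusted p = 3.53e-05). The ubiquitin ligases Fbxo32 (log2 fold change 0.08, adjusted p = 0.802) and Trim63 (0.36, adjusted p = 0.109) did not pass.

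**Figure D4:**
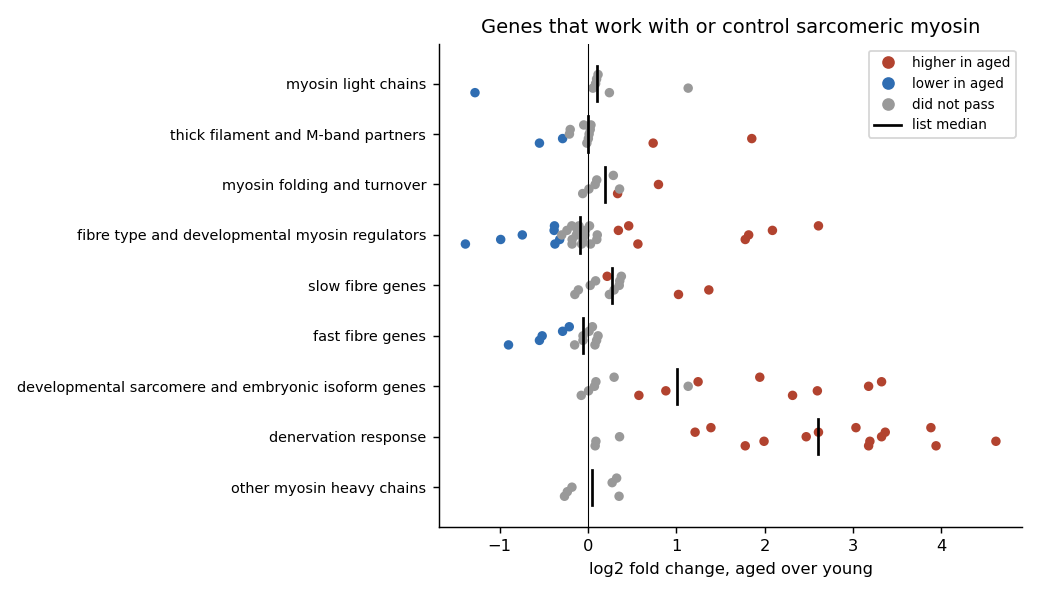
Log2 fold change, aged over young (x axis), of the genes in 9 lists (rows), 1 brightest probe set a gene; red was called higher in aged, blue lower, grey did not pass, and the bar is the list median. The developmental and denervation lists have medians of 1.01 and 2.61, and the other 7 lie between -0.09 and 0.27.

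Some markers of satellite cells and regenerating fibres were higher in aged muscle together with Myh3. Of 7 measured, 4 were higher, namely the myogenic factors Myog, Myf5 and Myod1 and the fusion protein Mymk, and 3 did not pass, namely Pax7, Cdh15 (log2 fold change -0.39, adjusted p = 0.0819) and Megf10 (0.02, adjusted p = 0.91). At an unadjusted p under 0.05 the limma counts were 4 higher and 2 lower. The summed intensity was 3073 to 5977 in aged muscle, against 839 to 1601 in young muscle. Most of it came from Myog, at 2197 to 3590 in aged and 406 to 532 in young animals, and from Myod1. Myod1 had 684 to 2064 in aged and 239 to 890 in young animals. The sum therefore does not describe the 7 markers as a set. The satellite cell marker Pax7 had 45.6, 46.3, 42.6 and 44.1 in aged animals 1, 2, 3 and 5 and a lower value in aged animal 4, against 45.4, 49.3, 51.5, 50.5 and 50.5 in young muscle (adjusted p = 0.108). Megf10 lay below the array medians, at 9.96 to 12.7 in aged muscle and 9.12 to 13.3 in young muscle, where a value may be mostly background. The part of the 7 markers in the Myh3 difference was not tested. The lists are not independent: all 4 of these higher markers also stand among the regulators or the developmental genes, Chrng and Ncam1 are in both the developmental and the denervation list, Myog and Hdac4 in both the regulator and the denervation list, and Sln in the denervation and heart lists.

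Of 6 muscle spindle markers, cells known to hold Myh7b, Myh6, Myh3 and Myh8, 5 did not pass and Etv4 was 1.79-fold lower (adjusted p = 0.00246). The summed intensity of the 6 was 117 to 140 in aged muscle and 126 to 165 in young muscle. Of 6 macrophage and leukocyte markers 3 were higher (C1qa, by 2.28-fold, Cd68 and Adgre1), with sums of 658 to 1387 in aged muscle and 297 to 623 in young muscle. Of 4 smooth muscle markers 2 were lower (Cnn1, by 1.57-fold, and Tagln), with sums of 384 to 568 in aged muscle and 610 to 659 in young muscle. Of 5 fibroblast markers Col3a1 was 1.35-fold higher and Col1a2 1.43-fold lower. Of 5 endothelial, 5 fat cell and 6 Schwann cell markers 0 passed in limma, and at an unadjusted p under 0.05 2 endothelial markers were lower, and 3 fat cell markers and 1 Schwann cell marker were higher. Without the share of all genes at that threshold, these unadjusted counts are not read as an excess. The part of these cells in the heavy chain values was not tested.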

How the data were processed

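The deposited table holds probe set intensities on a linear scale for 10 arrays. They were summarised with RMA per the submitters' processing notes, with no version given. The array design and genome build are not given in the sources used here. The table's columns name the age group but no replicate number, so the animals are numbered from a second deposited table of the same values, which carries the labels. Among the unnumbered columns 2 aged ones are marked as replacements, with no explanation in the sources used here. The log2 of each intensity was fitted with limma 3.58.1 in R 4.3.3 (lmFit, eBayes, age as the only term), with Benjamini-Hochberg adjustment over all 43686 probe sets. The script was tested on simulated data. Exact two-sided permutation tests over all splits of the animals into 5 and 5 served 8 isoform pairs and 12 probe set comparisons, whose smallest possible p is 0.00794. Genes in lists took their brightest probe set. Symbols were updated through RefSeq GRCr8 names, and 22 symbols turned into dates were left unnamed. All member probe sets were tested and are covered by values or ranges. From each partner list up to 4 called genes with the largest change are given, from each marker list the extremes, and for each called member the 5 genes most like it. Other genes named were chosen after their values were seen. The members and lists were chosen with earlier results of these data known.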

Additional observations from a re-analysis of the deposited data

How the results depend on the processing

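The calls of both Myh3 probe sets and of AW141106_s_at of Myh1 held with each array left out, with the arrays rescaled, with 16 added to each intensity, with another variance model, with a block for replicate number, and without both aged columns marked as replacements, except that leaving out dim probe sets removed BQ191538_at from the fit. Over these settings the log2 fold change of Myh3 on its brightest probe set was 4.57 to 5.29 with an array left out, and 2.98 as a mean over its probe sets. Of 14 single values that changed sign none passed the threshold, and the largest in size was 0.11 on the log2 scale. For Myh7 AI602634_a_at the value was -0.025 without the replacements and -0.11 to 0.26 with an array left out. For Myh2 it was -0.021 without the replacements and -0.024 to 0.10 with an array left out. With an array left out, Myh1 CR756270_at ran between -0.076 and 0.022 and Myh7 CA511611_a_at between -0.30 and 0.062. The pair of Myh6 with Myh7 was -0.0023 with 16 added, -0.0057 without the replacements, and -0.00999 to 0.21 with an array left out. The isoform pairs that passed numbered 4 in all arrays, 2 to 5 with an array left out, 0 without the replacements and 2 with the mean over probe sets of a gene. Probe set comparisons that passed numbered 5, against 0 to 5 with an array left out, 2 after quantile normalization and 0 without the replacements. Without the replacements fewer splits of the animals exist, so the smallest possible p of the exact permutation test is larger. The age effect on Myh3 then exceeded that on Myh8 by 4.35 on the log2 scale, with an adjusted p of 0.0714. The counts of 0 without the replacements therefore do not show that the differences were absent. The cause of the other losses was not tested. Member probe sets called lower numbered 2, and 1 to 3 with an array left out. Without the replacements 1846 of all probe sets were called lower, against 3001 with them. All probe sets split into 3535 higher and 3001 lower as deposited, 3057 and 3334 after quantile normalization, and 3973 and 2330 after centring on array medians. The numbers do not pair animals: same-numbered aged and young arrays had correlations of -0.117 to 0.0267 in their deviations. With the replicate block 3 member probe sets were called higher and 2 lower, beside 3200 and 2351 of all probe sets. The intensity near the array medians limits what can be said of Myh6, BQ191538_at of Myh3 and CK359490_a_at of Myh7. Young animals had 19.3 to 24.9 for Myh8, not far above those medians, and its call was lost with 16 added to each intensity. Cross-hybridisation between the closely related chains was not tested.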

Other observations

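Other myosin heavy chain genes, most of them of non-muscle or smooth muscle cells, had 13 further probe sets. By the brightest probe set of each, 0 of 6 such genes passed in limma, and at an unadjusted p under 0.05 1 was higher and 2 were lower. The non-muscle chain Myh9 was nearest, at 392 to 610 in aged muscle and 340 to 422 in young muscle (adjusted p = 0.0592), and Myh10, another non-muscle chain, had a log2 fold change of 0.32 (adjusted p = 0.242). Myh13, the superfast chain of eye muscle, had -0.27 (adjusted p = 0.0786), and Myh15 had 0.27 (adjusted p = 0.215).

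The probe sets of the non-muscle chain Myh14 differed from each other. ENSRNOT00000030722_a_at had 184, 159, 202, 192 and 171 in aged muscle, against 206, 211, 201, 206 and 203 in young muscle, and did not pass (log2 fold change -0.18, adjusted p = 0.123). XM_218617_at had 192, 313, 237, 250 and 257 in aged muscle, against 113, 135, 127, 117 and 132 in young muscle. All aged animals were above all young animals on XM_218617_at, which was 1.98-fold higher (adjusted p = 0.000125). For Myh11, the smooth muscle chain, a dim probe set, AY953023_a_at, was 1.32-fold lower (adjusted p = 0.00306) and its brightest did not pass (log2 fold change -0.23, adjusted p = 0.231). Which transcripts these probe sets detect was not tested.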
